A study of Caenorhabditis elegans with 48 samples.

Results

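Muscle genes outside the myosins were followed through L1 arrest, the starvation-induced developmental arrest of newly hatched Caenorhabditis elegans larvae. The 36 genes were taken as a list of gene identifiers, from 44968 genes counted, and cover the 4 muscle actins, 9 troponin and tropomyosin genes, 2 other thin filament proteins, 2 giant kinases, 14 proteins that attach the sarcomere to the membrane and matrix, 4 calcium handling proteins and the myosin chaperone unc-45. All 36 matched an annotated gene and all 36 passed the filter on low counts. Poly(A) RNA was sequenced from whole animals of the wild-type strain N2 at 12 time points counted from nominal hatching, namely -2 h, 0 h, the early times 2, 4, 6, 9 and 12 h, and the late times 24, 48, 96, 192 and 288 h. Embryos were obtained by hypochlorite treatment of fed adults and kept in S-basal, a buffer without food, so that every library came from animals without food, including those at -2 h. Each time point had 4 biological replicates, numbered 1, 5, 6 and 8, and values of single libraries are given in that order. For all but one of the replicate numbers the time points were sampled from a single culture, and the remaining replicate combined several cultures. The question addressed is when, and in which genes, expression changed as starvation went on.

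Muscle contracts when myosin thick filaments pull on thin filaments of actin. In the nematode sarcomere the troponin complex and tropomyosin lie along the thin filament and let myosin bind once calcium is released through the ryanodine receptor, and the pump SERCA then takes the calcium back into the sarcoplasmic reticulum. Thin filaments are anchored at dense bodies and thick filaments at M-lines, and both structures hold integrins that reach through the membrane to perlecan in the basement membrane. The larva has body wall muscle, used for movement, and pharyngeal muscle, used for feeding, and some troponin genes are used in only one of these.

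The libraries contained 10164115 to 15962842 gene counts, and the lowest count of any of the 36 genes in any library was 13. The share of gene counts from ribosomal RNA had a median of 2.963% and stood apart in the -2 h library of replicate 6 (46.301%) and the 24 h library of replicate 8 (27.316%). Of 4 body wall muscle markers, unc-54, myo-3 and unc-15 were above 3 counts in every library, while hlh-1 was listed at 0 in every library. All 5 pharynx markers were above 3 counts in every library. Relative expression is given in CPM, library-size-normalised counts scaled with TMM factors, so every value is relative to the other mRNA of the library. In whole animals fewer cells of a type and less RNA per cell cannot be told apart. Per the study's hatching and survival counts, many larvae hatched after 0 h and most were dead by 288 h. Changes within living animals and the share of unhatched or dead ones cannot be told apart at those ends.

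Taken as a sum, the 36 genes were most abundant around hatching and least abundant at the end. Their summed level was 22216 ± 2567 CPM at -2 h, 26639 ± 2101 at 0 h, 26319 ± 1640 at 2 h, 17363 ± 1134 at 12 h, 14986 ± 466 at 24 h, 9744 ± 258 at 192 h and 6261 ± 321 at 288 h (SD, n = 4 each). As a share of all gene counts this was 3.03 ± 0.14% at 0 h and 0.612 ± 0.0464% at 288 h. Of the 36 genes, 32 had their highest mean at 6 h or earlier, and 28 of these had their lowest mean at 288 h. Over all genes tested, 45.1% had their highest mean at 6 h or earlier and 23.9% their lowest mean at 288 h. The exceptions were dys-1, unc-68 and sca-1, which were highest at 48 h, and act-2, which was highest at 288 h. These are times of the highest mean, and differences from neighbouring times were mostly not tested. Libraries reached the 48 h range at 96 h for dys-1, at -2, 96 and 288 h for unc-68, and at 12 and 96 h for sca-1. For lev-11 and tnt-2, highest at 2 h, libraries at 0 and 4 h did so. Between the highest and the lowest time point 17 genes differed at least 10-fold in mean CPM, with tnt-2 (80.5-fold) at the top, and 3 differed under 2-fold, namely unc-60 (1.5-fold), unc-68 (1.51-fold) and unc-98 (1.75-fold). From published sets of genes by tissue, the study describes muscle genes as tending to peak late. Those genes were not compared with the 36 followed here.

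**Figure D1:**
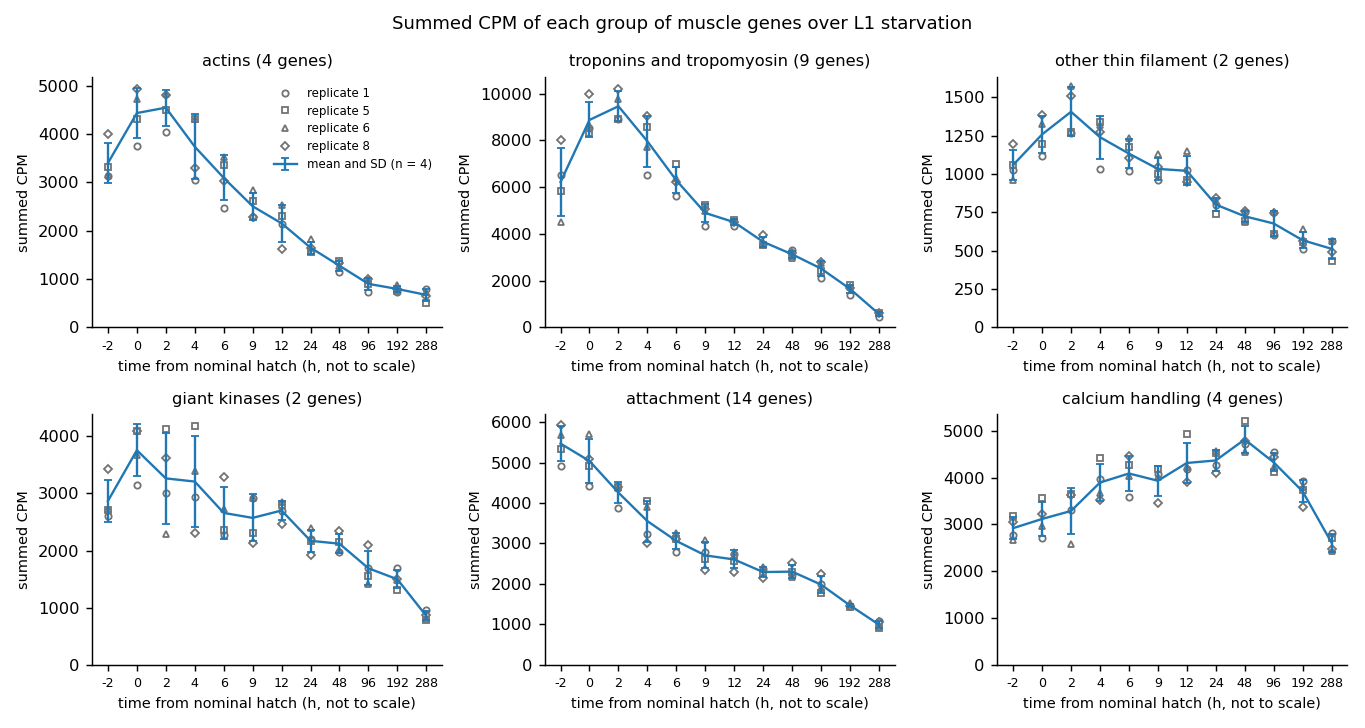
Summed CPM (vertical axis, from 0) of 6 groups of muscle genes at the 12 time points (horizontal axis, hours from nominal hatching, evenly spaced and not to scale), with open symbols for each of the 4 replicates and a line with bars for the mean and SD. By mean, actins and troponins are highest at 2 h (4551 and 9468 CPM), attachment genes at -2 h (5473 CPM), and calcium handling genes only at 48 h (4819 CPM).

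**Figure D2:**
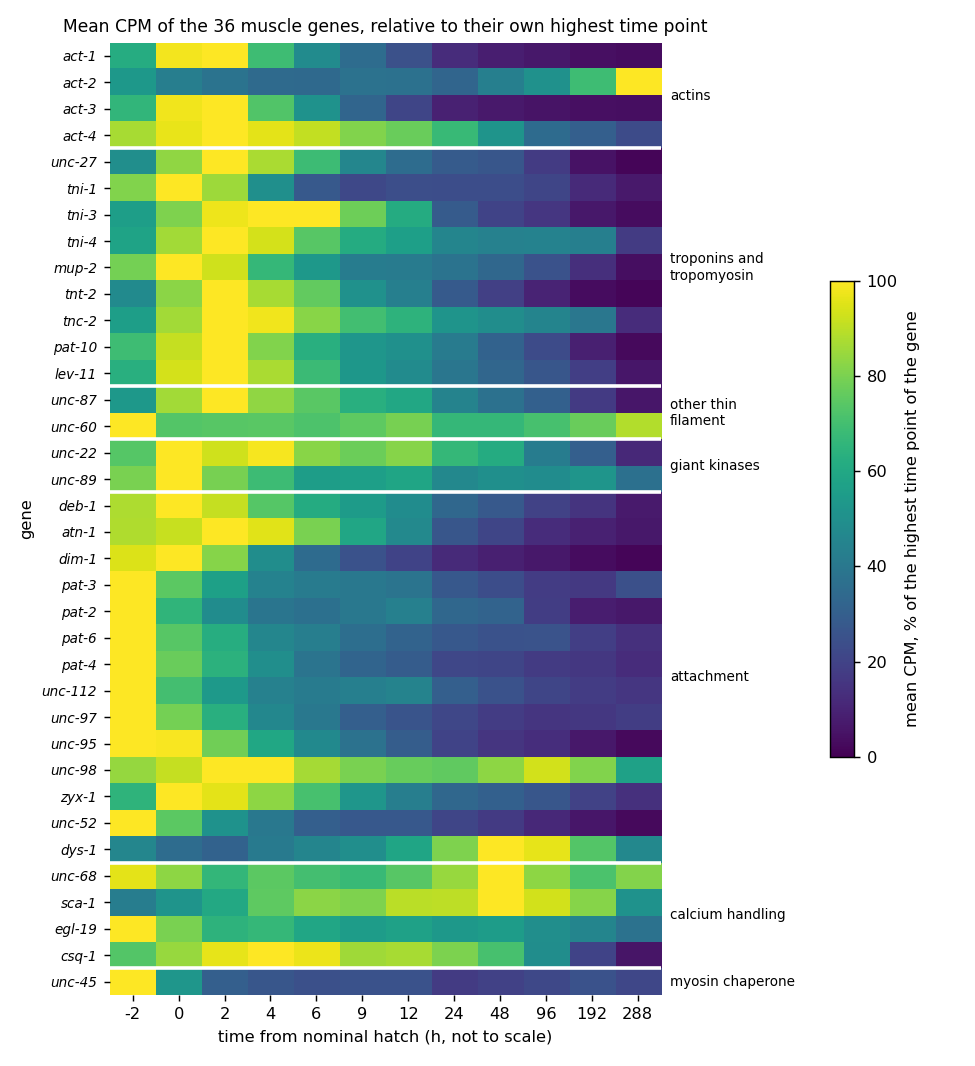
Mean CPM of each of the 36 genes (rows, grouped by role) at each time point (columns, hours from nominal hatching), coloured as a percent of the gene's own highest time point. Most rows are bright between -2 and 4 h and dark at 288 h, while dys-1, unc-68 and sca-1 are brightest at 48 h and act-2 at 288 h.

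All 36 genes passed the threshold of 0.05 on the false discovery rate (FDR) over the 12 time points in the edgeR likelihood ratio test, beside 84.9% of the 16987 genes tested. Intervals between 6 of the time points were then compared with the edgeR quasi-likelihood test, and neighbouring intervals share the libraries of one time point. At 0 h against -2 h, 21 of the 36 genes were called, 11 higher and 10 lower, beside 23.8% of all genes (11.5% higher, 12.3% lower). At 12 h against 0 h, 30 were called, 2 higher and 28 lower, beside 45.4% of all genes (22.2% higher, 23.3% lower), with a median log2 fold change of -0.90 over the 36 genes and -0.02 over all genes. At 24 h against 12 h, 13 were called, 1 higher and 12 lower, beside 9.54% of all genes (4.26% higher, 5.29% lower). At 192 h against 24 h, 28 were called, 2 higher and 26 lower, beside 39.7% of all genes (19.4% higher, 20.3% lower), and the medians were -1.03 and -0.05. At 288 h against 192 h, 27 were called, 2 higher and 25 lower, beside 24.7% of all genes (7.39% higher, 17.4% lower), and the medians were -0.58 and -0.00. Genes that were called and at least 2-fold lower numbered 0 of 36 at 0 h against -2 h (4.74% of all genes), 14 at 12 h against 0 h (11.1%), 2 at 24 h against 12 h (2.03%), 18 at 192 h against 24 h (10.4%) and 14 at 288 h against 192 h (4.89%). Both late falls, which share the 192 h libraries, were past the threshold in 20 of the 36 genes (7.71% of all genes), and 17 of these were also lower at 12 h against 0 h (2.53% of all genes). Abundant genes were called more often than genes at large. Among the 1737 protein-coding genes with a mean of at least 100 CPM, the shares called in the same order of intervals were 40.7, 69.9, 25.4, 69.7 and 54.5%. The shares called lower were 12.7, 21, 10.1, 23.7 and 44.4%, and the medians were 0.15, 0.26, 0.03, 0.23 and -0.25. The directions at 0 h against -2 h depended on the scaling, with 12 genes higher and 2 lower where no scaling factors were used. The count at 24 h against 12 h depended on the fit. The replicate number as a block gave 20 genes in place of 13, and leaving out replicate 6 gave 7.

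**Figure D3:**
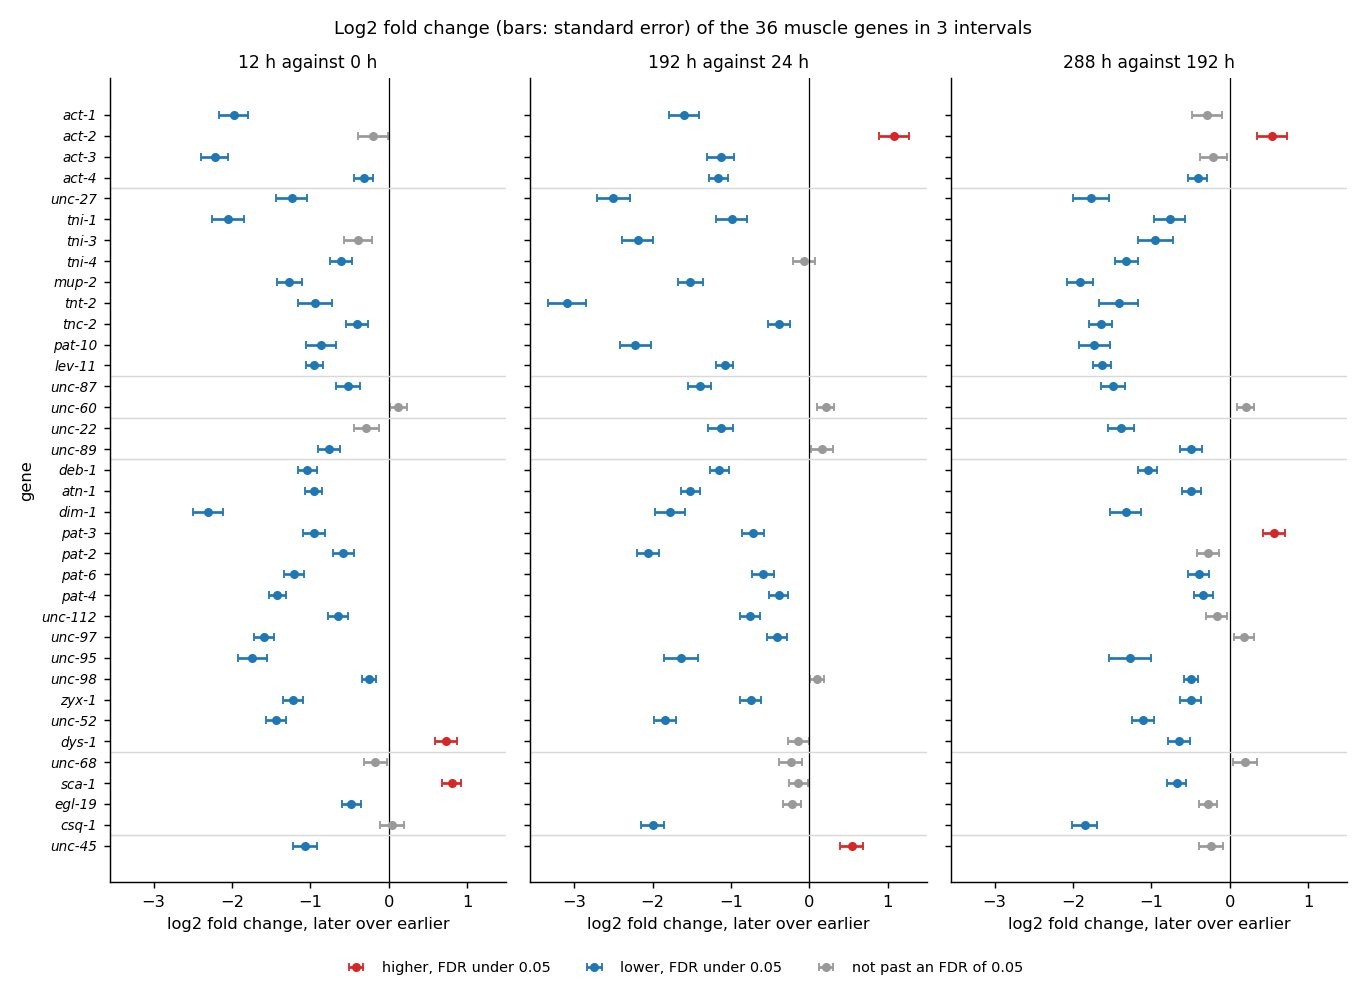
Log2 fold change of the 36 genes (rows, grouped by role as in the plot of relative levels) in 3 intervals, later over earlier, with the standard error as bars. Blue points are lower and red points higher at an FDR under 0.05, and grey points did not pass. Blue points outnumber red ones in each panel (28 against 2, 26 against 2 and 25 against 2).

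The actins form the thin filament itself. Act-1 (T04C12.6), act-2 (T04C12.5) and act-3 (T04C12.4) lie on chromosome V and act-4 (M03F4.2) on chromosome X. Their coding sequences are nearly identical, and reads with more than 2 locations were dropped. Actin reads can thus be lost, and the division of the rest between these genes is uncertain. Levels per kb may therefore be too low for the actins beside genes without such copies. Averaged over all libraries, act-4 had 862.2 CPM per kb of exon, against 353.0 for act-3, 347.6 for act-1 and 48.2 for act-2. The order within the list changed with time, and at 0 h lev-11 (1472.4 CPM per kb) stood above act-4 (1196.6), as did sca-1 at 192 h (707.4 against 373.5). The libraries held 1572.0, 1660.6, 1767.0 and 1126.1 CPM of act-4 at 12 h, against 1628.7, 1986.3, 1960.5 and 2087.8 CPM at 0 h. The 12 h libraries of replicates 5 and 6 lay within the range of 0 h, and the log2 fold change of -0.32 ± 0.12 (SE, FDR 0.0287) was -0.16 without replicate 8 (FDR 0.403). The call was also lost without replicate 5. In the later interval act-4 had 544.9, 584.2, 657.3 and 605.4 CPM at 192 h against 1266.2, 1290.8, 1478.4 and 1303.5 CPM at 24 h. All libraries at 192 h were below all libraries at 24 h (2.23-fold lower, FDR 1.79e-10).

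Act-3 and act-1 fell earlier. Act-3 had 256.7, 314.8, 368.7 and 240.9 CPM at 12 h, against 1123.0, 1301.4, 1496.0 and 1564.4 CPM at 0 h, which is 4.64-fold lower (FDR 1.19e-14). It had 124.0, 110.1, 146.2 and 144.8 CPM at 24 h and was 2.25-fold lower than at 12 h (FDR 3.99e-06), the largest fall of that interval among the 36. No library of the later time point reached the range of the earlier one in either interval. Act-1 was 3.94-fold lower at 12 h than at 0 h (FDR 4.22e-12), 1.98-fold lower at 24 h than at 12 h, and 3.03-fold lower at 192 h than at 24 h. Both genes had been higher at 0 h than at -2 h, act-1 by 1.59-fold (FDR 0.00498) and act-3 by 1.48-fold (FDR 0.00874), though the act-3 call was lost without replicate 6.

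Act-2 was the only member of the 36 with its highest mean at 288 h. Its level was low, with 49.5, 39.4, 38.4 and 41.5 CPM at 24 h, 100.9, 76.8, 91.8 and 86.6 CPM at 192 h, and 174.6, 85.7, 134.7 and 122.2 CPM at 288 h. Every 192 h library was above every 24 h library, and the rise of 2.11-fold (log2 fold change 1.08 ± 0.19, FDR 1.11e-05) was the largest of that interval among the 36. At 0 h against -2 h it passed, as lower, only with the replicate block (FDR 0.0412, against 0.26 without). At 288 h replicate 5 lay inside the range of 192 h, and the rise of 1.45-fold (FDR 0.03) was lost without replicate 1, 6 or 8. Act-2 thus rose over the same interval in which the other 3 actins fell.

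Troponin has a calcium-binding subunit (troponin C), an inhibitory subunit (troponin I) and a subunit that binds tropomyosin (troponin T). At 0 h against -2 h, 6 of the 9 troponin and tropomyosin genes rose and none fell. Without replicate 6, whose -2 h library had most ribosomal RNA, 3 rose, with the calls of unc-27, tni-3 and tnt-2 lost, and with the replicate block 7 rose, pat-10 being added (FDR 0.0164). At 12 h against 0 h 8 fell. At 24 h against 12 h 1 of the 9 fell, namely the troponin I gene tni-3 (T20B3.2, 2.13-fold lower, FDR 5.49e-05). With the replicate block 3 fell, tnt-2 (FDR 0.0145) and lev-11 (FDR 0.0309) being added, and with only the libraries of the 2 time points 6 fell. Unc-27, tnt-2, tnc-2 and lev-11 were lower at 24 h in all 4 replicates, and their libraries did not overlap. At 192 h against 24 h 8 fell, and at 288 h against 192 h all 9 fell, 7 of them at least 2-fold, though the call of tni-1 was lost without replicate 5 and without scaling factors. Their summed level was 8881 ± 752 CPM at 0 h, 9468 ± 647 at 2 h, 3659 ± 201 at 24 h, 1645 ± 184 at 192 h and 567.5 ± 86.4 at 288 h (SD, n = 4 each).

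Tropomyosin, encoded by lev-11 (Y105E8B.1), was the most abundant of these genes. It had 3504.2, 3383.7, 3293.5 and 3853.7 CPM at 0 h, against 2473.6, 2332.7, 1753.3 and 2884.0 CPM at -2 h, and the groups did not overlap (1.49-fold higher, FDR 0.000104). The lowest library at -2 h was the one with most ribosomal RNA. After 2 h its mean was lower at each successive time point, with 595.4, 803.8, 700.6 and 690.5 CPM at 192 h (2.11-fold lower than at 24 h, FDR 4.17e-11) and 185.0, 256.1, 224.0 and 235.9 CPM at 288 h (3.1-fold lower than at 192 h, FDR 5.38e-15). No library at 288 h came near the range of 192 h.

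Tnt-2 (F53A9.10), a troponin T gene, showed both the largest rise at 0 h and the largest late fall of the 36. It had 438.2, 476.2, 511.4 and 615.0 CPM at 0 h, against 301.6, 272.5, 211.0 and 396.0 CPM at -2 h (1.73-fold higher, FDR 0.00528). The groups did not overlap, but the call was lost without replicate 6 (FDR 0.0572), whose -2 h library was the lowest. At 192 h it had 10, 27.5, 27.3 and 17.5 CPM, against 165.7, 177.6, 201.3 and 154.2 CPM at 24 h, an 8.5-fold fall (log2 fold change -3.09 ± 0.24, FDR 1.51e-14). By 288 h it had 5.94, 8.67, 8.7 and 7.35 CPM, all below the 192 h libraries (2.68-fold lower, FDR 1.99e-05). Another troponin T gene, mup-2 (T22E5.5), had the largest fall of the last interval among the 36, with 40.7, 48.5, 55.2 and 43.7 CPM at 288 h against 108.2, 193.3, 243.3 and 165.0 CPM at 192 h. Even the lowest 192 h library, that of replicate 1, was above all 288 h libraries (3.77-fold lower at 288 h, FDR 2.21e-12).

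The troponin I genes did not share one time course. Tni-1 (F42E11.4) was highest at 0 h (597.8 ± 95.1 CPM, SD, n = 4), 4.15-fold lower at 12 h than at 0 h (FDR 9.13e-12), and then had means between 123.9 and 144.1 CPM from 12 to 96 h. Tni-3 was highest at 6 h (197.0 CPM) and did not pass at 12 h against 0 h (FDR 0.0789, and 0.0302 with the replicate block), and then was 4.58-fold lower at 192 h than at 24 h (FDR 2.47e-12). Unc-27 (ZK721.2), a body wall troponin I, was 2.36-fold lower at 12 h than at 0 h (FDR 1.33e-06) and 5.67-fold lower at 192 h than at 24 h (FDR 2.64e-13). Tni-4 (W03F8.1), the pharyngeal troponin I, had 346.1, 348.6, 348.4 and 414.0 CPM at 192 h against 382.4, 350.6, 355.4 and 445.1 CPM at 24 h. Those ranges overlapped, and the log2 fold change of -0.07 ± 0.14 did not pass (FDR 0.738). At 288 h tni-4 had 93, 176.1, 147.4 and 168.8 CPM, 2.49-fold lower than at 192 h (FDR 1.28e-09).

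**Figure D4:**
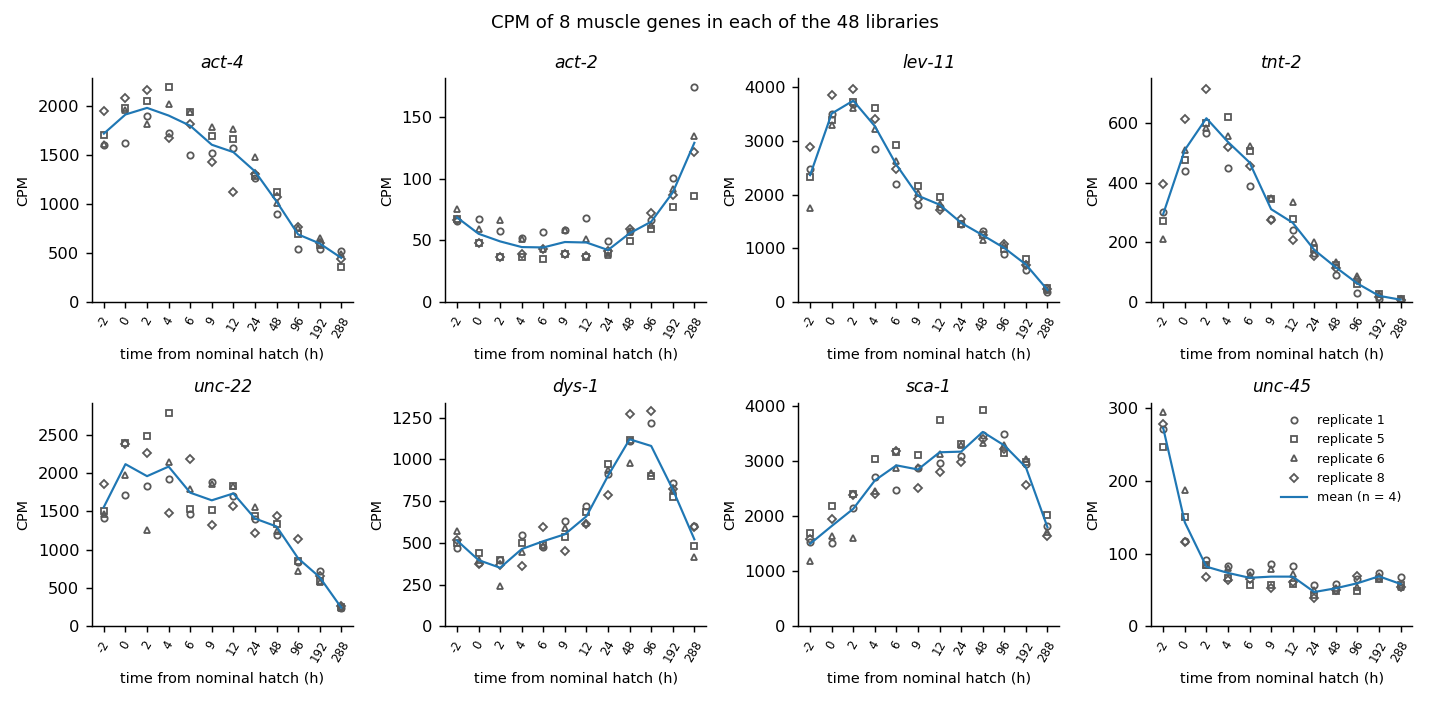
CPM of 8 of the genes (vertical axes from 0) in each of the 48 libraries at the 12 time points (hours from nominal hatching, evenly spaced), with one symbol per replicate and a line through the means of 4. By mean, lev-11 and tnt-2 peak at 2 h and decline to 225.3 and 7.66 CPM at 288 h, and unc-45 drops within the first hours. The means of dys-1 and sca-1 peak at 48 h, and that of act-2 is highest at 288 h.

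Pharyngeal and body wall troponin genes were set against each other within each library, since such a ratio does not depend on how libraries are scaled. For troponin C, the log2 ratio of tnc-2 (ZK673.7), the pharyngeal gene, to pat-10 (F54C1.7), the body wall gene, was 0.97, 0.18, 0.39 and 0.23 at 192 h, against -1.32, -1.40, -1.24 and -1.66 at 24 h. Every 192 h library was above 0 and every 24 h library below -1, so tnc-2 counts exceeded pat-10 counts at 192 h and were below them at 24 h. The mean difference was 1.85, with a 2-sided exact permutation p of 0.0286, the smallest that 4 against 4 libraries can give, and 0.0952 after Benjamini-Hochberg adjustment over the 10 ratio tests. For troponin I, the log2 ratio of tni-4 to unc-27 was 4.47, 2.94, 3.25 and 3.75 at 192 h, against 1.04, 1.05, 1.04 and 1.16 at 24 h. The difference of 2.53 had the same exact p of 0.0286 and the same adjusted value of 0.0952, so neither passes 0.05 after adjustment. A test at the smallest p cannot pass after adjustment over 10 tests unless several others reach it too. At 12 h against 0 h the tni-4 to unc-27 ratio was higher by 0.62 (exact p 0.0286, adjusted 0.0952), and at 288 h against 192 h the differences were 0.01 for tnc-2 to pat-10 and 0.35 for tni-4 to unc-27 (exact p 0.971 and 0.4). Tni-4 was set against unc-27 alone, and ratios to tni-1 or tni-3 were not tested. At 192 h against 24 h tni-1 was 1.98-fold, tni-3 4.58-fold and unc-27 5.67-fold lower. At 12 h against 0 h tni-1 was 4.15-fold, unc-27 2.36-fold and tni-4 1.53-fold lower, and tni-3 (1.31-fold lower) did not pass. Behind the ratios, pat-10 had 81.8, 133.0, 106.6 and 140.2 CPM at 192 h against 501.2, 498.3, 473.8 and 680.6 CPM at 24 h (4.67-fold lower, FDR 1.17e-12). Tnc-2 had 160.2, 151.0, 139.7 and 164.1 CPM at 192 h against 200.2, 189.2, 201.2 and 215.5 CPM at 24 h (1.31-fold lower, FDR 0.0248, a call lost without replicate 6 or 8 and without scaling factors). Both genes were below their 24 h ranges, by unequal amounts. Over the same interval the summed level of the 4 body wall markers was 1565.6 to 3373.0 CPM at 192 h against 12217.0 to 13823.8 CPM at 24 h. That of the 5 pharynx markers was 4357.9 to 5399.9 CPM at 192 h against 5537.2 to 6272.9 CPM at 24 h. Gene by gene, all 3 tested body wall markers were called lower (median log2 fold change -2.14). Of the 5 pharynx markers 1 was called higher and 0 lower (median -0.02). Over all genes tested 19.4% were higher and 20.3% lower. The 6 intestine markers summed to 1179.5 to 1345.7 CPM at 192 h against 3311.9 to 3567.3 CPM at 24 h, and the 7 neuron markers to 5025.2 to 5825.1 CPM at 192 h against 3531.6 to 3792.8 CPM at 24 h. The 6 hypodermis and seam markers summed to 91.7 to 111.0 CPM at 192 h against 123.7 to 151.2 CPM at 24 h, and the 6 germline markers to 47.8 to 87 CPM at 192 h against 55.2 to 86.7 CPM at 24 h. At 288 h the body wall and pharynx sums were 360.0 to 566.2 CPM and 552.4 to 1433.7 CPM, below their 192 h ranges. The body wall sum comes from unc-54, myo-3 and unc-15 alone, since hlh-1 was at 0, and all 3 are thick filament genes. Unc-15 is not confined to body wall muscle, so this sum does not mark that tissue alone. The part of these shifts in marker sums in the ratios was not tested.

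**Figure D5:**
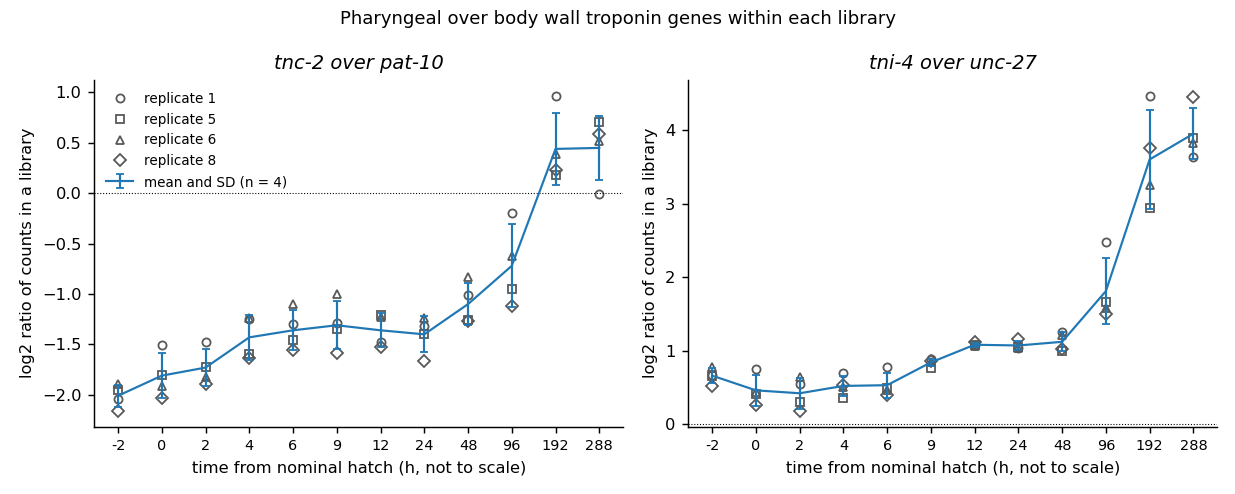
Log2 ratio of the counts of a pharyngeal to a body wall troponin gene in each library (symbols, one per replicate) at the 12 time points, with the mean and SD of 4 as a line with bars and a dotted line at 0 (equal counts). Left, tnc-2 over pat-10, with means of 0.44 at 192 h and -1.40 at 24 h. Right, tni-4 over unc-27, with means of 3.60 at 192 h and 1.07 at 24 h.

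Other thin filament proteins split. Unc-87 (F08B6.4), a calponin-like protein that binds and stabilises actin filaments, followed the troponins. It had 755.3, 844.4, 895.8 and 1052.4 CPM at 0 h against 540.8, 526.2, 426.7 and 710.6 CPM at -2 h (1.61-fold higher, FDR 0.000577). At 288 h it had 49.7, 70.7, 70.1 and 59.9 CPM, all below the 192 h values of 118.2, 206.0, 206.0 and 172.0 CPM (2.8-fold lower, FDR 2.74e-10). Unc-60 (C38C3.5) encodes ADF/cofilin, which severs actin filaments, as a muscle and a nonmuscle form that these counts do not separate. It was lower at 0 h than at -2 h (371.2 ± 42.3 against 507.6 ± 28.4 CPM, SD, n = 4 each, FDR 0.00261), a call lost without scaling factors. In the 4 intervals after 0 h it did not pass, and its log2 fold changes lay between -0.25 and 0.21. With the replicate block it passed as lower at 24 h against 12 h (FDR 0.0353) and as higher at 192 h against 24 h (FDR 0.0327).

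The giant kinases twitchin (unc-22, ZK617.1) and obscurin (unc-89, C09D1.1) are long proteins of the thick filament and the M-line with many immunoglobulin domains. Unc-22 had 1705.5, 1824.2, 1827.6 and 1574.1 CPM at 12 h, against 1718.2, 2389.1, 1973.0 and 2379.0 CPM at 0 h, and these ranges overlapped (FDR 0.15). At 192 h it had 725.6, 597.5, 580.9 and 659.7 CPM, against 1405.8, 1442.9, 1554.7 and 1220.3 CPM at 24 h (2.19-fold lower, FDR 1.85e-07). At 288 h it had 235.3, 245.8, 232.4 and 263.3 CPM, all below the 192 h libraries (2.62-fold lower than at 192 h, FDR 6.5e-09). Unc-89 fell earlier, by 1.7-fold at 12 h against 0 h (FDR 1.56e-05), and did not pass at 192 h against 24 h (854.6 ± 105.2 against 764.0 ± 63.5 CPM, SD, n = 4 each, FDR 0.397). Its last fall was 1.41-fold (288 h against 192 h, FDR 0.00706), a call lost without replicate 6 and without scaling factors. Per length their means over all libraries were 61.7 CPM per kb for unc-22 and 38.7 for unc-89, against 835.1 for lev-11 and 48.2 for the least abundant actin, act-2.

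The summed level of the 14 attachment genes was highest at -2 h. At 0 h against -2 h, 8 of them fell and 1 rose, but 1 fell without scaling factors and 2 fell without replicate 8. At 12 h against 0 h 13 fell and 1 rose, and at 24 h against 12 h 8 fell and 1 rose (11 fell with the replicate block and 4 without replicate 6). Later, 12 fell at 192 h against 24 h, and 10 fell and 1 rose at 288 h against 192 h. Their summed level was 5473 ± 442 CPM at -2 h, 5042 ± 536 at 0 h, 2603 ± 223 at 12 h, 2291 ± 124 at 24 h, 1465 ± 40 at 192 h and 991.2 ± 90 at 288 h (SD, n = 4 each). Of the 14, 8 had their highest mean at -2 h, before the nominal hatch.

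Among these 8 were the integrin subunits and the adaptors that bind to the integrin tail. Alpha integrin pat-2 (F54F2.1) was 1.53-fold lower at 0 h than at -2 h (FDR 0.000295) and 4.17-fold lower at 192 h than at 24 h (FDR 1.24e-16). Kindlin unc-112 (C47E8.7) was 1.42-fold lower at 0 h than at -2 h (FDR 0.0026) and parvin pat-6 (T21D12.4) 1.35-fold lower (FDR 0.00948). Integrin-linked kinase pat-4 (C29F9.7) was 1.29-fold lower (FDR 0.00882) and PINCH unc-97 (F14D12.2) 1.26-fold lower (FDR 0.0458). All 4 adaptors fell again at 12 h against 0 h, by 1.56 to 3.02-fold, and again at 192 h against 24 h, by 1.31 to 1.7-fold. Without scaling factors none of the 4 adaptors passed at 0 h against -2 h. Unc-52 (ZC101.2), the perlecan of the muscle basement membrane, was 1.34-fold lower at 0 h than at -2 h (FDR 0.0139), a call lost without scaling factors, without the filter and without replicate 1 or 8. It was 2.72-fold lower at 12 h than at 0 h (FDR 1.66e-12), 3.57-fold lower at 192 h than at 24 h (FDR 3.75e-15) and 2.16-fold lower at 288 h than at 192 h (FDR 1.46e-08).

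Beta integrin pat-3 (ZK1058.2) ended differently. It had 52.7, 49.6, 58 and 51.8 CPM at 192 h, against 98.5, 69.3, 94.6 and 85.9 CPM at 24 h (1.64-fold lower, FDR 4.72e-05), and the groups did not overlap. At 288 h it had 98.8, 55.4, 82.3 and 75.3 CPM, higher than at 192 h in all 4 replicates (1.47-fold, FDR 0.0021), with replicate 5 inside the 192 h range. This was the largest rise of the last interval among the 36, while its partner pat-2 did not pass in that interval (FDR 0.139). The difference between the partners was not tested.

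Dense body proteins peaked around hatching. Vinculin (deb-1, ZC477.9) was 2.05-fold lower at 12 h than at 0 h (FDR 3.91e-10) and alpha-actinin (atn-1, W04D2.1) 1.94-fold lower (FDR 1.06e-09). Both fell in each of the 3 following intervals, and reached 61.4 ± 8.17 CPM and 24.6 ± 4.03 CPM at 288 h (SD, n = 4 each). Dim-1 (C18A11.7), an immunoglobulin-repeat protein near the dense bodies, had 156.1, 126.7, 188.3 and 118.4 CPM at 12 h against 604.8, 668.1, 866.8 and 775.6 CPM at 0 h. The groups were far apart, and this 4.94-fold fall (log2 fold change -2.31 ± 0.19, FDR 3.3e-14) was the largest of its interval among the 36. Its lowest mean was at 288 h, 72.9-fold below its highest. Zyxin (zyx-1, F42G4.3) was the 1 attachment gene that rose at 0 h against -2 h (1.54-fold, FDR 0.000372), before it fell with the others at 12 h (2.33-fold, FDR 1.62e-10). Unc-95 (Y105E8A.6), a LIM domain protein of the attachment sites, had the lowest level per length of the 36 (24.3 CPM per kb) and was 3.34-fold lower at 12 h than at 0 h (FDR 1.43e-10). Unc-98 (F08C6.7), a zinc finger protein of the M-line, changed little, with means between 39.8 and 52.6 CPM from -2 to 192 h and 30.1 ± 3.55 CPM at 288 h (1.42-fold lower than at 192 h, FDR 4.68e-05).

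Dys-1 (F15D3.1) was the attachment gene that ran against the rest after hatching. It encodes dystrophin, which links the muscle cytoskeleton to the membrane. It had 721.7, 682.4, 616.8 and 614.2 CPM at 12 h, against 379.1, 437.7, 396.3 and 372.6 CPM at 0 h (1.66-fold higher, FDR 1.45e-05). At 24 h it had 912.8, 969.8, 935.6 and 788.8 CPM (1.37-fold higher than at 12 h, FDR 0.0231). All libraries of the later time point were above those of the earlier one in both intervals, but the second call was lost without replicate 1, 5 or 6 and without scaling factors. At 0 h against -2 h it was lower (396.4 ± 29.2 against 513.8 ± 41.5 CPM), a call lost when any one replicate was left out. Its highest mean was 1119.8 ± 120.4 CPM at 48 h (SD, n = 4). At 288 h it had 598.3, 480.2, 412.8 and 592.5 CPM, against 860.0, 776.5, 818.0 and 823.8 CPM at 192 h (1.57-fold lower, FDR 0.000191).

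By summed level, the calcium handling genes showed the latest maximum of any group. Singly, sca-1 and unc-68 had their highest means at 48 h, csq-1 at 4 h and egl-19 at -2 h. Their summed level was 2921 ± 234 CPM at -2 h, 3118 ± 364 at 0 h, 4316 ± 435 at 12 h, 4369 ± 222 at 24 h, 4819 ± 280 at 48 h, 3708 ± 234 at 192 h and 2610 ± 190 at 288 h (SD, n = 4 each). None of the 4 passed at 0 h against -2 h, though with the replicate block sca-1 passed as higher (FDR 0.0325) and egl-19 as lower (FDR 0.0358). Most of the sum was sca-1 (K11D9.2), the SERCA calcium pump, which had 2978.8, 3744.7, 3134.5 and 2800.8 CPM at 12 h against 1522.0, 2184.5, 1638.2 and 1949.0 CPM at 0 h. Every 12 h library exceeded every 0 h library, and the 1.74-fold rise (log2 fold change 0.80 ± 0.12, FDR 3.47e-07) was the largest of that interval among the 36. At 192 h it had 2959.8, 2992.4, 3038.7 and 2575.9 CPM, not past the threshold against 24 h (FDR 0.401). At 288 h it had 1822.7, 2021.4, 1715.1 and 1648.4 CPM, all below the 192 h libraries (1.6-fold lower, FDR 1.61e-05), and this call was lost without scaling factors (FDR 0.0586).

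The other 3 genes of calcium handling moved separately from sca-1. Calsequestrin (csq-1, F40E10.3), which stores calcium in the sarcoplasmic reticulum, had 327.2 ± 21.5 CPM at 24 h and did not pass in the first 3 intervals. It was then 4.01-fold lower at 192 h than at 24 h (81.6 ± 22.2 CPM at 192 h, FDR 9.46e-15) and 3.61-fold lower at 288 h than at 192 h (22.5 ± 7.06 CPM at 288 h, SD, n = 4 each, FDR 1.23e-12). The ryanodine receptor unc-68 (K11C4.5), the calcium release channel, passed in none of the 5 intervals, with means between 532.0 CPM at 2 h and 802.2 CPM at 48 h. Egl-19 (C48A7.1), the pore subunit of the L-type calcium channel, was 1.4-fold lower at 12 h than at 0 h (FDR 0.00105) and did not pass in the 3 later intervals. At 288 h sca-1, unc-68 and csq-1 thus had means of 1801.9, 652.9 and 22.5 CPM, against 2891.7, 573.7 and 81.6 CPM at 192 h.

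Unc-45 (F30H5.1), the chaperone that folds the myosin head, had its highest level at -2 h. It had 117.8, 150.4, 187.9 and 116.7 CPM at 0 h, against 271.7, 246.6, 294.9 and 278.3 CPM at -2 h. The groups did not overlap, and the 1.9-fold fall (log2 fold change -0.93 ± 0.14, FDR 3.85e-06) was the largest of that interval among the 36. It was a further 2.09-fold lower at 12 h than at 0 h (FDR 4.54e-08), with 82.9, 58.2, 71.8 and 60.7 CPM at 12 h. At 192 h it had 74, 64.9, 69.7 and 66.5 CPM, against 56.5, 43.2, 49.9 and 39.2 CPM at 24 h, its lowest time point. That later rise of 1.46-fold (FDR 0.00264) made it 1 of the 2 genes of the 36 that rose in the interval, beside act-2, and all 192 h libraries were above all 24 h libraries.

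Other muscle genes, from a list of 36 matched genes of which 35 were tested, moved as follows. At 0 h against -2 h 9 rose and 9 fell, at 12 h against 0 h 6 rose and 16 fell, and at 24 h against 12 h 1 rose and 0 fell. At 192 h against 24 h 6 rose and 16 fell, and at 288 h against 192 h 3 rose and 19 fell. Over all genes tested, 11.5, 22.2, 4.26, 19.4 and 7.39% were higher in the 5 intervals in order. The shares lower were 12.3, 23.3, 5.29, 20.3 and 17.4%. Of the protein-coding genes with a mean of at least 100 CPM, 28, 48.9, 15.4, 46 and 10.1% were higher. In that set 12.7, 21, 10.1, 23.7 and 44.4% were lower. The 10 thick filament and myosin genes, and so the counts above, include the nonmuscle myosin genes nmy-1 and mlc-4. Among the 10, 2 rose and 2 fell at 12 h against 0 h. Their median log2 fold change was -0.02, where the 9 troponin and tropomyosin genes had a median of -0.94. Unc-54, the main body wall myosin heavy chain, was higher at 12 h than at 0 h (7773.0 against 4892.8 CPM, FDR 0.00345) while lev-11 was lower. Later, 6 of the 10 fell at 192 h against 24 h and 8 at 288 h against 192 h, and unc-54 had 187.0 CPM at 288 h against 1493.6 CPM at 192 h (FDR 5.38e-15). Act-5, the actin of intestinal microvilli, had 147.5 CPM at 12 h against 1198.0 CPM at 0 h (log2 fold change -3.02, FDR 3.11e-18), and is counted in no muscle list here. Of 11 receptors and excitation genes, 8 fell and none rose at 12 h against 0 h. The potassium channel gene twk-18 had 7.19 CPM at 192 h against 91.5 CPM at 24 h (log2 fold change -3.67, FDR 5.39e-21). Of the tested muscle transcription factors, unc-120 rose at 192 h against 24 h (56.8 against 34 CPM, FDR 2.75e-05).

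The 36 genes share no single position or length. They lie on all 6 chromosomes, from 3 on chromosome II to 9 on chromosome X. Over the 36 genes the Spearman rho of log2 fold change and exon length was -0.31 at 0 h against -2 h, 0.12 at 12 h against 0 h, 0.03 at 24 h against 12 h, 0.14 at 192 h against 24 h and 0.24 at 288 h against 192 h. These are descriptions across genes of the same libraries. Of the 36, 13 share exonic bases with a gene on the opposite strand and 3 with a gene on the same strand, and reads from such stretches cannot be assigned to one gene with a library kit that does not mark strand.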

How the data were processed

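Whole N2 animals were collected at 12 time points with 4 replicates each, giving 48 poly(A) libraries of single-end reads. The deposited tables hold whole-number counts of reads per gene, which the authors made by aligning with bowtie to WS210 and counting with HTSeq, with reads of more than 2 locations dropped and tool versions not given in the sources used here. The library kit does not mark strand. Summary entries that name no gene (21.086 to 29.683% of reads) were left out. Genes with CPM above 1 in at least 4 libraries were kept (16987 genes), scaled with TMM factors and fitted in edgeR 4.0.16 (R 4.3.3), with 1 coefficient per time point. A likelihood ratio test covered all time points, and the 2-sided quasi-likelihood test covered each of 5 intervals, with Benjamini-Hochberg adjustment over all genes tested and a threshold of 0.05. The standard error of a log2 fold change is its size divided by the square root of the F statistic. Fits were tested on simulated data. Troponin ratios used counts with 0.5 added and a 2-sided exact permutation test.

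The members and lists were chosen with earlier results of these data known. Values in single libraries are given for the most abundant member of each group, the largest rise and fall of each interval among members past the threshold, the troponin genes of the ratios and unc-45. Further members are named with means and fold changes, and genes outside the list (unc-54, act-5, twk-18, unc-120) were named after their values were seen. Exon lengths come from the current annotation (WBcel235) and no coordinates were carried between builds. Same-numbered libraries deviated from their time point means together in every pair (Pearson r above 0.1) in 3 of the 5 intervals, 24 h against 12 h among them, and the lowest r of the 20 pairs was -0.053. The pairing comes from the sampling, since per the study's methods all but one of the replicates were each a single culture followed through time. At 24 h against 12 h the replicate block also added unc-87 (FDR 0.00917), unc-97 (FDR 0.0339), unc-95 (FDR 0.0125) and zyx-1 (FDR 0.0135), all as lower. Blocked values stand beside the other results whose call they change. Reads carried no molecular identifiers, and with at least 13 counts per gene and library the spread between replicates set the precision. Alternatives were other scalings and filters, DESeq2 1.42.0, the replicate block, only the libraries of an interval, and leaving out replicates or the libraries rich in ribosomal RNA.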

Additional observations from a re-analysis of the deposited data

Results flagged for a closer look

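Of 102 groups of 4 libraries checked for a single library far from the rest, 8 had one, and chance gives about 1 in 20 groups. Several of the 8 came from replicate 8. In that replicate lev-11 had 1544.9 CPM at 24 h, against 1442.7 to 1457.6 CPM in the others, and pat-10 had 680.6 CPM at 24 h, against 473.8 to 501.2 CPM in the others. This 24 h library was one of the 2 with the highest share of ribosomal RNA. Pat-10 had 1426.9 CPM in replicate 8 at 0 h, against 1083.0 to 1109.8 CPM in the others. At 192 h replicate 8 had 2575.9 CPM of sca-1, against 2959.8 to 3038.7 CPM in the others, and 414.0 CPM of tni-4, against 346.1 to 348.6 CPM in the others.

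In replicate 6, act-2 had 75.9 CPM at -2 h, against 65.4 to 67.2 CPM in the others, and that library had the highest share of ribosomal RNA. In replicate 6, pat-3 had 277.5 CPM at 0 h, against 221.9 to 225.8 CPM in the others. In replicate 1, tnc-2 had 31 CPM at 288 h, against 54.3 to 55.2 CPM in the others.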

How the results depend on the processing

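All 36 genes passed over the time series under every alternative run, and no gene called in an interval changed sign under any of them. Over all alternatives the genes called numbered 14 to 25 (21 as reported) at 0 h against -2 h, 27 to 31 (30) at 12 h against 0 h, 27 to 29 (28) at 192 h against 24 h and 19 to 27 (27) at 288 h against 192 h. The count of 13 at 24 h against 12 h was the least stable, with 22 without scaling factors, 20 with the replicate block, 23 with only the libraries of the 2 time points, and 7 to 13 when a replicate was left out, the 7 without replicate 6. The cause was not tested. In the other 4 intervals the replicate block gave 25, 31, 29 and 27 genes and removed no call. The troponin ratios did not pass after adjustment in the unpaired test. Pairing them by replicate number cannot decide this, since sign flips of 4 differences cannot give a p under 0.05 whatever the data. The split at 0 h against -2 h was 12 higher and 2 lower without scaling factors, 11 and 4 without the filter or without replicate 8, and 6 and 9 without replicate 6, against 11 and 10 as reported. At 24 h against 12 h no gene was higher without scaling factors. At 288 h against 192 h the split was 3 higher and 16 lower without scaling factors. Leaving scaling factors out shifted the all-gene median (log2 fold change) to 0.17, -0.14, -0.21, -0.14 and 0.21 in the 5 intervals in order, and upper-quartile scaling moved it to 0.13 in the last. Without the 2 libraries richest in ribosomal RNA the counts were 16, 31, 11, 28 and 27. The share of reads that the near-identical actins or overlapping genes could exchange was not measured. Nor was the share of actin reads lost for having more than 2 locations.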
